A study of Sus scrofa with 23 samples.

Results

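Haem, iron and zinc handling in pig bone marrow-derived macrophages was followed through 8 genes: CD163, HMOX1, FTH1, FTL, SLC11A2, SLC39A14, STEAP4 and LTF. They were listed by name, with earlier results of these data known, and all 8 were on the array, out of 6765 genes with a named probe set. They were measured by 14 probe sets that carry a single gene name. Another 5 probe sets listed FTH1 together with HDHD2 and were not used.

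The cells were grown from the bone marrow of Large White x Landrace F1 pigs in recombinant human CSF1, a growth factor that turns marrow cells into macrophages. Cultures were given lipopolysaccharide (LPS, a component of the outer membrane of Gram-negative bacteria) from Salmonella at 100 ng/ml. By the labels, 6 arrays came from unstimulated cells at 0 h, 6 from cells after 2 h of LPS, 6 after 7 h and 5 after 24 h. The labels give 3 pigs at each time, with pigs 1 and 3 male and pig 2 female, and a culture and a duplicate culture of each pig except pig 3 at 24 h. There was no unstimulated culture at 2, 7 or 24 h, so that time in culture and exposure to LPS cannot be told apart.

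Macrophages take up haemoglobin and old red cells, break down the haem and pass the iron to storage or back to the blood. CD163 is the surface receptor for complexes of haemoglobin and haptoglobin, and HMOX1 is haem oxygenase 1, which opens the haem ring and frees the iron. FTH1 and FTL are the heavy and light chains of ferritin, the iron store. SLC11A2, also called DMT1, moves ferrous iron out of the endosome, STEAP4 is a membrane reductase of iron and copper, and SLC39A14, also called ZIP14, brings zinc and iron into the cell. LTF, lactoferrin, is a secreted iron-binding protein stored in the secondary granules of neutrophils. During infection, macrophages are known to hold back iron from microbes.

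The labels were checked before any comparison. The Y-linked gene EIF1AY had log2 intensities of 8.16 to 9.45 on 15 arrays and 3.60 to 4.08 on 8, and its level did not match the sex in the label for 8 of the 23. Each array is identified here by its column in the deposited table, from 1 to 23. By correlation over all probe sets there were 11 pairs of mutually most similar arrays. All 11 were neighbouring columns (1 and 2, 3 and 4, and so on to 21 and 22), and 0 of the 11 shared a labelled time. The brightest probe set of each member gene showed the same: CD163 differed by a median of 0.13 log2 units within the most similar pairs and 0.65 between labelled duplicate cultures. For LTF these medians were 0.17 and 1.96, for HMOX1 0.04 and 0.88, and for STEAP4 0.05 and 0.43. The dimmer CD163 probe set went the other way, at 0.56 and 0.35, as did the dimmest of SLC11A2, at 0.13 and 0.12. The pairs were found from these same arrays, so small differences within them are in part built in. Listing the samples by labelled time, then pig, then culture in place of the deposited order would put 23 of 23 arrays at the EIF1AY level of their pig's sex. That order was inferred from the values and the file. EIF1AY was high, low and high in turn all along the columns, so its match cannot tell which columns belong to which time. For both reasons no time was assigned to any column. The values are therefore given in 2 ways: as labelled, with tests, and by column, in runs of columns 1 to 6, 7 to 12, 13 to 18 and 19 to 23, as a description with no test.

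As labelled, 0 of 8 member genes differed between times in limma's test (Benjamini-Hochberg adjusted over 23999 probe sets, threshold 0.05). The share of all probe sets called was 0.0125% when the labelled 2 h was set against 0 h, 0% at 7 h (754 probe sets had an unadjusted p under 0.05 there) and 0.00417% at 24 h. An F test over the labelled times called 0.00833%. The named probe sets called were those of LAPTM5, IFI30 and RPL12 at 2 h and RPL12 at 24 h. Counting all 14 member probe sets, 0 had an unadjusted p under 0.05 in any of these tests, and their lowest adjusted p was 0.914. Duplicate cultures were averaged before the test, and n is 3 labelled pigs at each time.

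CD163 averaged 9.94 ± 1.29 log2 units at the labelled 24 h and 9.26 ± 0.35 at the labelled 0 h (SD, n = 3 each), a limma difference of 0.68 ± 0.55 (SE, adjusted p = 0.914), higher in 2 of 3 pigs. HMOX1 averaged 10.87 ± 1.07 at 24 h and 11.51 ± 0.24 at 0 h, a limma difference of -0.65 ± 0.34 (adjusted p = 0.914), lower in 2 of 3 pigs. STEAP4 had a mean of 7.76 ± 2.71 at 24 h and 8.45 ± 3.47 at 0 h, and the SD between labelled pigs exceeded the limma difference of -0.68 ± 0.88 (adjusted p = 0.915). LTF stood at 6.63 ± 2.25 at 24 h and 6.04 ± 0.25 at 0 h, with a difference of 0.59 ± 0.74 (adjusted p = 0.915). For SLC11A2 the same difference was 0.01 ± 0.52 and for SLC39A14 -0.03 ± 0.33, both with an adjusted p above 0.99. At 2 h and at 7 h the probe sets that stood for the members differed from 0 h by at most the 0.58 of CD163 at 7 h (limma SE 0.55, adjusted p = 0.993). Without the 8 arrays against their labelled sex, 0 members were called as well. The arrays that share a labelled time did not resemble each other, so these comparisons show neither an effect of LPS on the members nor its absence.

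**Figure D1:**
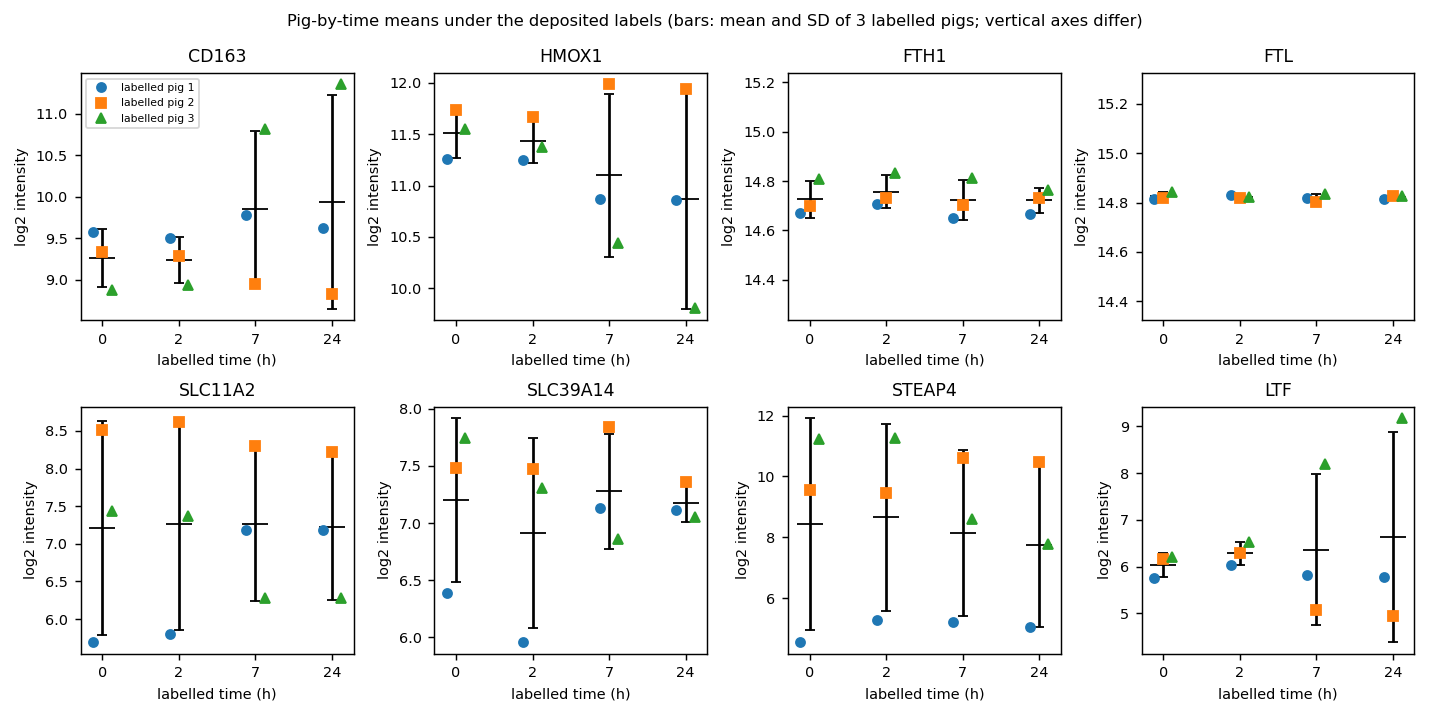
Log2 intensity (vertical axes, which differ between panels) of the 8 genes at each labelled time in hours (horizontal axes). Symbols are means of the duplicate cultures of each labelled pig, and horizontal bars with whiskers are the mean and SD of 3 pigs. The SDs of STEAP4, from 2.71 to 3.47, exceed its differences between labelled times, and FTL lies at 14.82 or 14.83 in mean at every time.

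Set by column, 6 of 8 members spanned at least 2 log2 units (4-fold) over the 23 arrays, against 13.3% of 6765 genes. The median span was 2.94 log2 units for the members and 0.96 for all genes. Because the members were chosen with earlier results of these data known, these shares and those by run are descriptions, not a test of enrichment. STEAP4 spanned 7.45, LTF 4.53, CD163 3.51, SLC11A2 3.13, SLC39A14 2.76 and HMOX1 2.73. For the ferritin chains, FTH1 spanned 0.27 and the brighter FTL probe set 0.06, both at the top of the array's range, while the dimmer FTL probe set spanned 2.66. Where a gene had several probe sets, the one with the highest mean stood for it in these figures.

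Against columns 1 to 6, the values lay wholly above for 3 of 8 members in columns 7 to 12, where 5.47% of all genes did. They lay wholly above for 4 of 8 in columns 13 to 18, where 13.9% of genes did, and for 5 of 8 in columns 19 to 23, also 13.9% of genes. No member (0 of 8) lay wholly below in any run, where 11.4%, 28% and 22.4% of genes did in the same order of columns. SLC11A2 and STEAP4 were above in all 3 runs, and SLC39A14 in columns 7 to 12 and 13 to 18. FTH1 was above in columns 13 to 18 and 19 to 23, and CD163 and LTF in columns 19 to 23. For CD163 the margin was under the rounding of the values, and its dimmer probe set overlapped columns 1 to 6. The margin of FTH1 was narrow, with at most 14.71 in columns 1 to 6 and at least 14.75 in columns 13 to 18. Among inflammatory genes, the cytokine gene TNF ran from 5.42 to 6.10, 12.35 to 12.56, 10.06 to 11.30 and 6.20 to 10.66 in the 4 runs. IL1B had medians of 7.83, 14.13, 13.99 and 12.98. IL6, a cytokine known in mouse to raise SLC39A14 in the liver, had medians of 4.30, 4.42, 6.57 and 7.88. The runs were inferred from the values of these arrays and the file, so these cytokine genes cannot assign times to them.

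**Figure D2:**
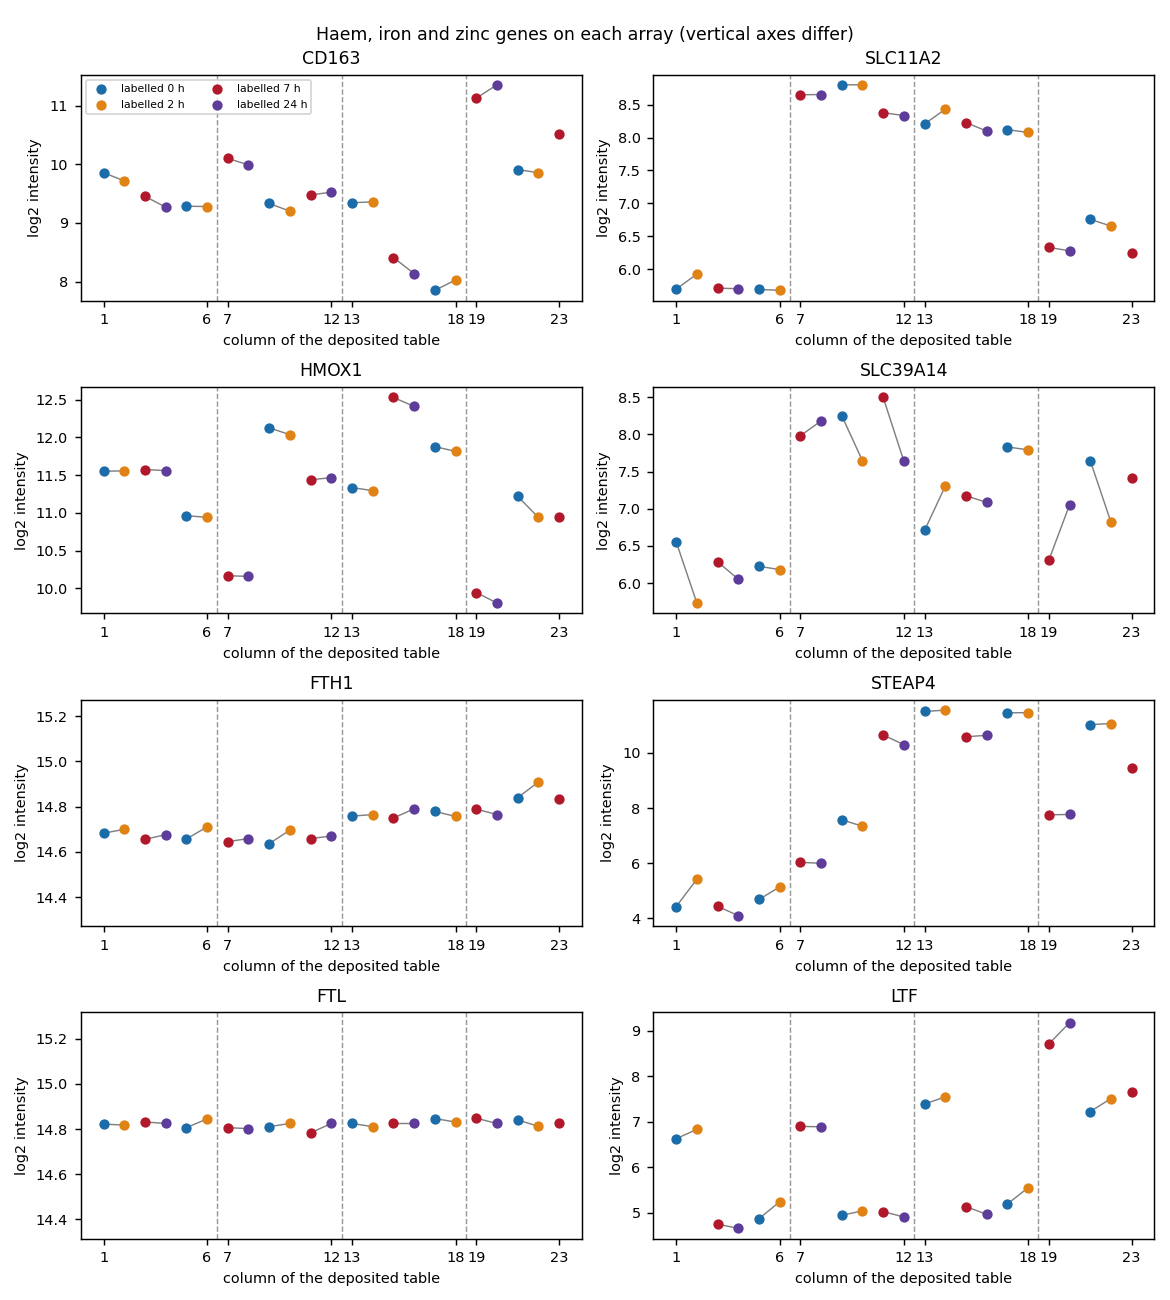
Log2 intensity (vertical axes, which differ between panels) of the 8 genes on each of 23 arrays, by column of the deposited table (horizontal axes). Colours give the labelled time, grey lines join neighbouring columns that are most similar pairs, and dashed lines part the runs of columns. STEAP4 runs from 4.10 in column 4 to 11.55 in column 14, while arrays of the same labelled time lie far apart.

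Of the genes for haem uptake and breakdown, CD163 had a lowest, median and highest value of 9.27, 9.37 and 9.86 in columns 1 to 6 and of 9.20, 9.50 and 10.10 in columns 7 to 12. The values were 7.85, 8.27 and 9.36 in columns 13 to 18 and 9.86, 10.52 and 11.36 in columns 19 to 23. The last run overlapped columns 7 to 12 and lay above columns 13 to 18. It cleared columns 1 to 6 by less than the rounding of these values, since column 1 and column 22 both had 9.86. Within columns 13 to 18 the pairs stood apart: 9.34 and 9.36 in columns 13 and 14, against 8.14 to 8.41 in columns 15 and 16 and 7.85 to 8.03 in columns 17 and 18. Columns 19 and 20 held the highest values, 11.13 and 11.36. A dimmer CD163 probe set also lay highest in columns 19 to 23, at 6.34 to 8.73. It stood at 4.89 to 5.61 in columns 7 to 12 and 4.64 to 5.72 in columns 13 to 18. It overlapped columns 1 to 6, at 5.34 to 7.43. Within the most similar pairs this dimmer probe set differed by a median of 0.56 and by up to 1.25.

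The values of HMOX1 in every later run overlapped those of columns 1 to 6. Its lowest, median and highest values were 10.94, 11.55 and 11.58 in columns 1 to 6 and 10.16, 11.45 and 12.13 in columns 7 to 12. They were 11.29, 11.85 and 12.53 in columns 13 to 18 and 9.80, 10.94 and 11.22 in columns 19 to 23, and these last 2 runs did not overlap. The pairs stood apart within the runs. From column 7 on, the first pair of each run was the lowest: 10.17 and 10.16 in columns 7 and 8, 11.34 and 11.29 in columns 13 and 14, and 9.94 and 9.80 in columns 19 and 20. The second pair of columns 7 to 12 and of 13 to 18, which also has the low EIF1AY level, was the highest of its run, at 12.04 to 12.13 in columns 9 and 10 and 12.41 to 12.53 in columns 15 and 16. In columns 1 to 6 the last pair was the lowest, at 10.96 and 10.94. Of 9 markers of red cells and their precursors, 5 had a named probe set. Their summed linear intensity was 354 to 440 in columns 1 to 6, 361 to 417 in columns 7 to 12, 220 to 279 in columns 13 to 18 and 184 to 224 in columns 19 to 23. HBB, the beta chain of haemoglobin, had log2 medians of 8.29, 8.02, 7.17 and 6.54. It lay wholly below columns 1 to 6 in columns 13 to 18 and 19 to 23. The rest of the measured markers, ALAS2, EPOR, KLF1 and AHSP, overlapped columns 1 to 6 in every run. The part of these markers in the values of CD163 and HMOX1 was not tested.

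Ferritin, the iron store, gave the brightest signals of the array. FTL had the brightest probe set on 21 of 23 arrays and FTH1 on the other 2. This FTL probe set stayed between 14.78 and 14.85 on all 23 arrays. It held the identical value 14.8247 in columns 4, 10, 12, 13, 15, 16, 20 and 23. FTH1 had medians of 14.68 in columns 1 to 6, 14.66 in columns 7 to 12, 14.76 in columns 13 to 18 and 14.83 in columns 19 to 23. The values of the last 2 runs, from 14.75 to 14.91, all lay above those of columns 1 to 12, from 14.64 to 14.71. RMA, the authors' method, gives all arrays the same distribution of brightness, which leaves the brightest probes little room to differ. Whether this held the ferritin values together was not tested. The second FTL probe set was far dimmer, with medians of 7.28, 7.91, 9.31 and 8.60 in the 4 runs. There the values of columns 13 to 18, from 8.94 to 9.46, lay above every other array, and columns 19 to 23, at 8.04 to 8.66, lay above columns 1 to 6, at 6.81 to 7.71. The 2 FTL probe sets thus had unlike spans, of 0.06 and 2.66. Whether the brighter one could have shown a change was not tested.

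Among the iron and zinc transporters, SLC11A2 separated the runs most clearly. Its lowest, median and highest values were 5.68, 5.70 and 5.92 in columns 1 to 6 and 8.33, 8.65 and 8.80 in columns 7 to 12. They were 8.08, 8.16 and 8.43 in columns 13 to 18 and 6.24, 6.33 and 6.76 in columns 19 to 23. All arrays of columns 7 to 18 were higher than all of columns 19 to 23, which were higher than all of columns 1 to 6. The most similar pairs differed by at most 0.23. Another of its 4 probe sets also lay above columns 1 to 6 in every later run but was highest in columns 13 to 18, with medians of 6.17, 7.48, 8.24 and 7.13 in the 4 runs. The other 2 probe sets were dim, at 3.34 to 3.79 and 4.11 to 4.91, and did not part the runs. Of these, the dimmer lay under the lower quartile of probe sets on all 23 arrays.

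SLC39A14 had a lowest, median and highest value of 5.73, 6.20 and 6.56 in columns 1 to 6 and of 7.64, 8.08 and 8.50 in columns 7 to 12. The values were 6.71, 7.24 and 7.83 in columns 13 to 18 and 6.31, 7.05 and 7.65 in columns 19 to 23. Columns 7 to 18 lay above columns 1 to 6, and columns 19 to 23 overlapped them. Of all member probe sets, this one had the highest median difference within the most similar pairs, at 0.60. The dimmer CD163 probe set was close, at 0.56, and had the larger maximum, 1.25 against 0.86. The other SLC39A14 probe set, with 0.27 there, parted the same runs, with medians of 6.01, 7.78, 7.39 and 7.09. In columns 19 to 23 it had 6.13 and 6.39 in the first pair, against 7.09 to 7.53 on the other 3 arrays.

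STEAP4, the metal reductase, had the widest span of the 8 members. It stood at 4.10, 4.56 and 5.42 (lowest, median and highest) in columns 1 to 6, with 2 of 23 arrays under the lower quartile of probe sets. In columns 7 to 12 the pairs were spread over 4 log2 units and more, with 6.03 and 6.00 in columns 7 and 8, 7.58 and 7.34 in columns 9 and 10, and 10.65 and 10.30 in columns 11 and 12. Columns 13 to 18 were high and close together, from 10.59 to 11.55. Columns 19 to 23 were spread again, with 7.76 and 7.77 in the first pair, 11.03 and 11.07 in the second and 9.47 in column 23. Each of the later runs lay wholly above columns 1 to 6, and all of them overlapped one another.

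LTF, the iron-binding protein of neutrophil granules, was higher in the first pair than in the other pairs of each run. Columns 1 and 2 had 6.63 and 6.83, columns 7 and 8 had 6.90 and 6.89, and columns 13 and 14 had 7.39 and 7.55. The other 12 arrays of columns 1 to 18 had 4.65 to 5.55. In columns 19 to 23 all arrays were high, with 8.71 and 9.18 in the first pair, 7.23 and 7.51 in the second and 7.65 in column 23. These lay above all of columns 1 to 12, while columns 13 to 18 overlapped them.

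Granulocyte and precursor markers were set beside LTF, and 4 of 11 had a named probe set. Their summed linear intensity ran from 797 to 2165 in columns 1 to 6, 748 to 2085 in columns 7 to 12, 844 to 1900 in columns 13 to 18 and 346 to 1434 in columns 19 to 23. ELANE, neutrophil elastase, had medians of 7.22, 7.29, 6.54 and 5.74. Its values in columns 19 to 23 lay wholly below columns 1 to 6, where LTF lay above. Within every run ELANE was highest in the first pair, as LTF was, at 8.05 to 8.10, 7.85 to 8.16, 7.45 to 7.60 and 5.87 to 5.99. The granule protease PRTN3 was at its highest in the same first pairs, at 10.48 to 10.79 in columns 1 and 2, against 8.93 to 9.47 in columns 3 to 6. In columns 21 to 23 PRTN3 was at 7.22 to 7.70, under all its values in columns 1 to 6. MMP9, a gelatinase, was lowest in the first pair of each run, at 6.25 to 6.60, 5.95 to 6.36, 6.38 to 6.63 and 6.21 to 6.47. The granule protein BPI stayed between 4.66 and 5.40 on every array. MPO and 6 other markers of the list had no named probe set. In bulk RNA, fewer cells of a type and less RNA per cell cannot be told apart. Among macrophage markers, the protease CTSB was at 14.38 to 14.57 and the adaptor TYROBP at 12.61 to 13.14 on all arrays. The 8 of 12 such markers measured summed to linear intensities of 45366 to 47067, 43820 to 47104, 43852 to 47842 and 46258 to 48630 in the 4 runs. This sum was carried by the brightest markers, CTSB, AIF1, TYROBP and FCER1G, and the dimmer ones weighed little in it. Some of the 8 markers moved: CD14, a receptor for LPS, lay above columns 1 to 6 in all 3 later runs, with medians of 7.83, 9.44, 9.26 and 9.63. CD74, the invariant chain, lay above them in columns 13 to 18, while TYROBP lay below them there and FCER1G below them in columns 19 to 23. ITGAM had a median of 4.73 over the arrays. Of T and NK cell markers, CD2 reached 10.45 in columns 19 to 23, while CD3E stayed between 4.21 and 4.99 and CD3D between 5.61 and 6.31. The 4 of 6 such markers measured summed to linear intensities of 156 to 204, 198 to 277, 320 to 630 and 226 to 1563 in the 4 runs. Their part in the members' values was not tested.

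**Figure D3:**
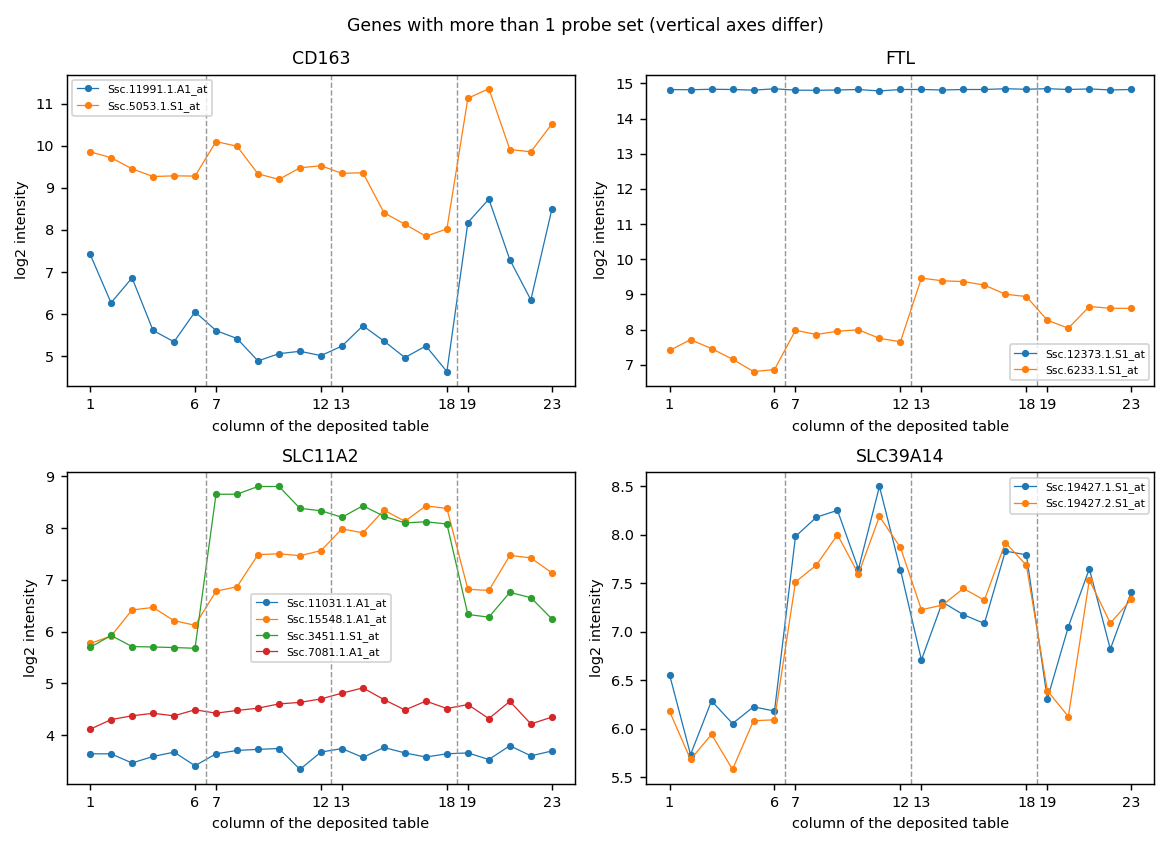
Log2 intensity (vertical axes, which differ between panels) on each of 23 arrays by column (horizontal axes) for every probe set of the 4 genes that have more than 1. Dashed lines part the runs of columns. The brighter FTL probe set is flat near 14.82 while the dimmer one runs from 6.81 to 9.46, and 2 of the 4 SLC11A2 probe sets stay between 3.34 and 4.91.

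The wider pathway was described through 4 lists of further genes. Among haem uptake, breakdown and export genes, 8 of 14 were measured, with a median span of 1.23. In columns 7 to 12, 1 lay wholly above columns 1 to 6 and 1 below, where 5.47% and 11.4% of all genes did. HMOX2, the constitutive haem oxygenase, was the one above, at 8.68 to 8.91 against 8.20 to 8.40, and was narrowly above in columns 19 to 23 too, at 8.42 to 8.89. FLVCR2, a haem and choline transporter, was the one below, at 8.17 to 8.52 against 8.56 to 8.92. FLVCR2 was also the 1 gene of the list below in columns 13 to 18, at 7.93 to 8.08, where 28% of all genes were. SLC46A1, a folate transporter also reported to carry haem, was at 8.47 to 8.95 in columns 19 to 23, above its 7.63 to 8.32 in columns 1 to 6. HMOX2 and SLC46A1 were the 2 of 8 above in columns 19 to 23, where 13.9% of all genes were. BLVRA, which reduces the biliverdin left by haem oxygenase, and the exporter ABCG2 overlapped columns 1 to 6 in all runs, with spans of 1.42 and 1.78.

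For iron uptake, release and regulation, 10 of 24 genes were measured, with a median span of 1.11. In columns 19 to 23, 2 lay wholly above columns 1 to 6 and 2 wholly below, where 13.9% and 22.4% of all genes did. ACO1, cytosolic aconitase and iron regulatory protein 1, was below, at 10.96 to 11.40 against 12.10 to 12.27. IREB2, iron regulatory protein 2, was below too, at 7.15 to 7.50 against 7.95 to 8.22. Those above were TFRC, the transferrin receptor, at 5.88 to 6.35 against 5.32 to 5.84, and NCOA4, the ferritin cargo receptor of autophagy, at 11.99 to 12.24 against 11.35 to 11.73. In columns 13 to 18 IREB2 was instead wholly above columns 1 to 6, at 8.25 to 8.30, where 13.9% of all genes were. FBXL5, the ubiquitin ligase subunit that removes IREB2 when iron is plentiful, had medians of 9.86, 8.92, 9.19 and 10.49. FBXL5 was below columns 1 to 6 in both middle runs and overlapped them in columns 19 to 23. SLC11A1, or NRAMP1, the iron and manganese pump of the phagosome, had medians of 9.22, 9.03, 8.34 and 9.29 and overlapped columns 1 to 6 in every run. STEAP1, a relative of STEAP4, spanned 1.63 with medians from 4.54 to 4.64. HAMP, the hormone hepcidin, stayed between 4.45 and 4.97. SLC40A1, the iron exporter ferroportin, had no named probe set.

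Haem and iron-sulphur synthesis genes (8 of 14 measured, median span 1.18) were the list with the most members below: 5 of 8 in columns 13 to 18, where 28% of all genes were. ALAS1, the first and rate-limiting enzyme of haem synthesis outside red cells, went the other way. It stood at 10.86 to 11.09 in columns 7 to 12 and 11.03 to 11.16 in columns 13 to 18, above all of columns 1 to 6, where the median was 9.84 and the lowest 9.49, and overlapped them in columns 19 to 23 at 9.52 to 10.49. ALAD, the second enzyme, was at 6.42 to 7.06 in columns 13 to 18 and 7.67 to 7.98 in columns 1 to 6. FECH, ferrochelatase, which inserts the iron, lay below columns 1 to 6 in every later run, with medians of 10.25, 9.93, 9.40 and 9.43. NFS1, the sulphur donor of iron-sulphur clusters, was at 8.43 to 8.83 in columns 13 to 18 and 9.30 to 9.51 in columns 1 to 6.

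Zinc handling had 9 of 23 genes measured, with a median span of 1.04, and 0 lay wholly below columns 1 to 6 in any run, where 11.4%, 28% and 22.4% of all genes did. Of the 9, 1 lay above in columns 13 to 18 and 1 in columns 19 to 23, against 13.9% of genes in each. S100A9, a subunit of the zinc-binding protein calprotectin, was at 13.56 to 13.73 in columns 19 to 23, above its 9.46 to 11.39 in columns 1 to 6. Its partner S100A8 had medians of 8.44, 8.69, 9.08 and 9.17, and S100A12 6.98, 7.24, 7.66 and 8.33, and both overlapped columns 1 to 6 in all runs. SLC39A7, which releases zinc from the endoplasmic reticulum, was at 9.92 to 10.05 in columns 13 to 18, above its 9.26 to 9.58 in columns 1 to 6. The other measured importers, SLC39A1 and SLC39A4, overlapped columns 1 to 6 in every run, with spans of 0.74 and 1.04. So did the metallothioneins MT1A and MT3, with spans of 0.75 and 0.66. SLC30A5, a zinc exporter of the Golgi, had medians of 8.46, 8.67, 8.05 and 8.04.

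**Figure D4:**
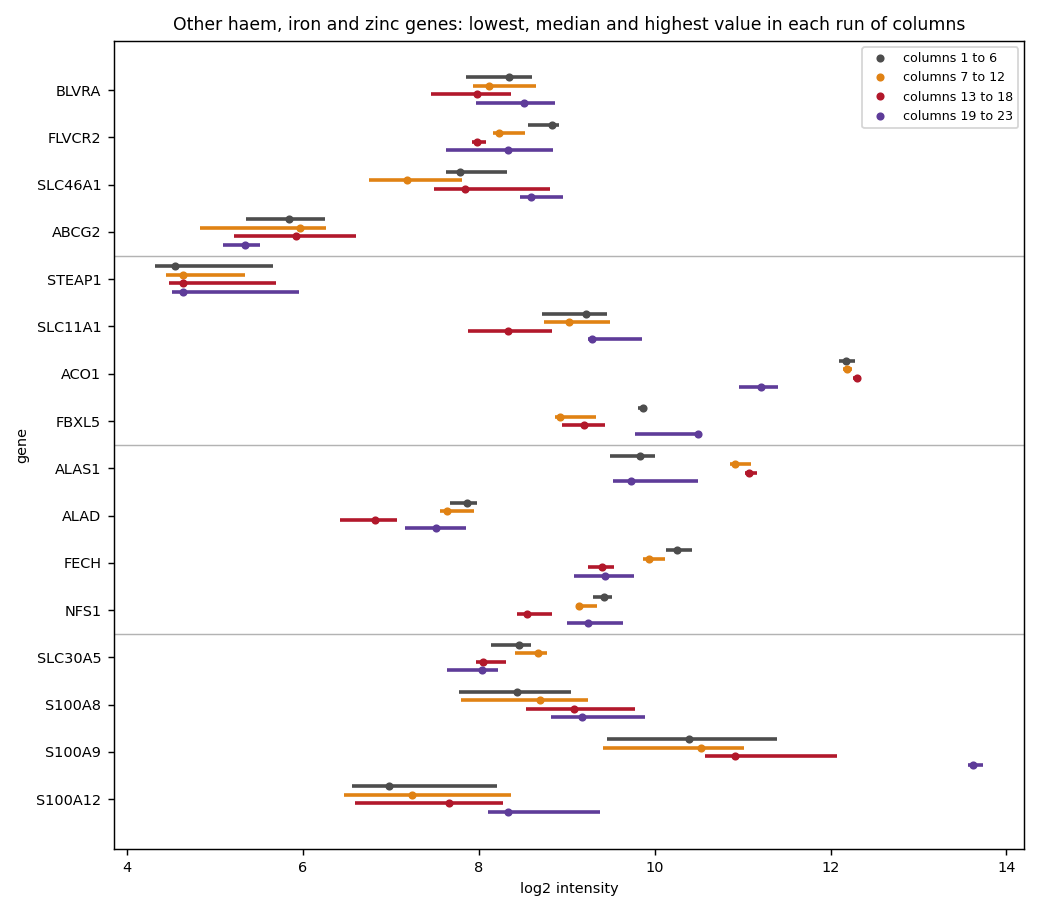
Log2 intensity (horizontal axis) of 16 further haem, iron and zinc genes (vertical axis), up to 4 with the widest span from each list, with grey lines between lists. Bars run from the lowest to the highest array in each run of columns, and points are medians. S100A9 is set apart in columns 19 to 23, ACO1 is lowest there at 10.96 to 11.40, and ALAS1 is highest in columns 7 to 18.

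For each of the 6 members that spanned at least 2 log2 units, the 2 genes nearest in pattern were found by the root mean square difference over the 23 arrays, after each probe set's own median was subtracted. CD163 was nearest to CDC42EP3 (0.32 log2 units), an effector of the GTPase CDC42, and TP53INP2 (0.35), an autophagy protein, where the median gene was 0.89 away. SLC39A14 was nearest to the tyrosine phosphatase PTPN1 (0.42) and the antiproliferative TOB1 (0.46), against 0.84 for the median gene. SLC11A2 was nearest to CD83 (0.52), a surface protein of activated antigen-presenting cells, and IFNAR2 (0.53), a chain of the type I interferon receptor, against 1.49. LTF was nearest to PSAT1 (0.69), an enzyme of serine synthesis, and the chemokine receptor CXCR4 (0.71), against 1.54. STEAP4 was nearest to the membrane glycoprotein SMAGP (1.17) and the exonuclease ISG20 (1.19), against 2.79. HMOX1 was nearest to the nucleolar protein LYAR (0.46) and the chaperone HSPA8 (0.47), against 0.79. The 23 arrays are not independent points, since 22 of them form the most similar pairs.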

How the data were processed

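RNA from the macrophage cultures was hybridised to 23 Affymetrix arrays. The deposited table holds linear probe set intensities. The submitters' processing notes name affy and RMA, with neither version given in the sources used here. Per the submitters' processing notes the authors thus normalised these intensities before deposit. RMA corrects background, equalises the brightness distribution between arrays and summarises probes. Array medians ran from 69.5 to 73.9. Intensities were converted to log2 and not normalised again. No detection calls were used here. Precision is limited by the number of pigs, 3 at each labelled time.

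Of 24123 probe sets, 124 controls were left out. Of the 23999 others, 10069 had 1 gene, 198 several and 13732 none listed. Gene identifiers were looked up in RefSeq's Sscrofa11.1 table for current symbols. For 2261 of 6765 genes with more than 1 probe set, the highest mean decided which stood for the gene. No coordinates or sequences are given, because no genome was used.

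Groups come from the labels alone. Duplicate cultures were averaged to 12 pig-by-time means and tested with limma 3.58.1 under R 4.3.3, in a model of time plus a pig block that leaves 6 residual degrees of freedom. The block was used because each pig gave cells for all times, per the series text. Same-pig deviations from the means of each time had correlations of 0.27 to 0.97, highest for 2 h against 0 h, the labelled times that most similar pairs join. The fit was tested on simulated data whose labels were right, so that test cannot speak for labels that the arrays do not match. Labels do not say whether duplicate cultures were separate from plating on, so their spread may be technical.

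The members, lists and runs of columns were chosen with earlier results of these data known. The text names the members, TNF, IL6, IL1B and EIF1AY, up to 4 widest-spanning genes (at least 1 log2 unit) per list, and the 2 nearest genes for members spanning at least 2. HMOX2, TFRC, IREB2, NCOA4, HAMP and SLC39A7, SLC39A1, SLC39A4, MT1A and MT3, and the cell type markers named, were added after their values were seen. Alternatives changed the block, the cultures used, the filter on dim probe sets, scaling, single pigs, the arrays against their sex and the choice of probe set.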

Additional observations from a re-analysis of the deposited data

Results flagged for a closer look

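Over 14 member probe sets and 4 labelled times, 56 combinations in all, 5 had 1 array far from the others of its labelled time by Dixon's criterion, which chance alone meets in about 1 in 20 groups. The combinations are not independent, since probe sets share arrays and most similar arrays carry different labelled times. CD163 was low on the array labelled pig 3, culture 1 at 0 h (7.85, others 9.29 to 9.91) and again on the one labelled pig 3, culture 1 at 2 h (8.03, against 9.20 to 9.86 elsewhere). These are neighbouring columns, 17 and 18. Its dimmer probe set was high on the array labelled pig 3, culture 1 at 24 h (8.73, others 4.97 to 5.61), in column 20. FTH1 was high on the array labelled pig 3, culture 2 at 2 h (14.91, others 14.70 to 14.77). The brighter FTL probe set was low on the array labelled pig 1, culture 2 at 24 h (14.80). The others of that labelled time all had the identical value 14.8247, so any departure from it, however small, would meet the criterion.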

How the results depend on the processing

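No member was called in any of 264 refits of its labelled differences, with adjusted p from 0.384 up, and 43 turned the sign of an uncalled difference. Calls over all probe sets were few and unstable. For the labelled 2 h against 0 h the count of 3 became 0 with first cultures only, with duplicate cultures only and without the 8 arrays whose EIF1AY level did not match, 30 with all arrays kept and a random block for pig and time, and 19 on those 2 times only. Without single pigs it was 0 to 0. For 7 h against 0 h it was 1 without the 8 arrays and 0 otherwise. For 24 h against 0 h the count of 1 became 2 with no replicate block, 0 with either culture set or on those 2 times only, 15 with the random block, 3 without the 8 arrays and 0 to 0 without single pigs. With no replicate block the counts for 2 h, for 7 h and for any difference among times were 2, 0 and 3, and 0 members were called. For any difference among times the count of 2 became 0 with either culture set, 34 with the random block, 1 after centring each array, 1 without the 8 arrays and 0 to 0 without single pigs.

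Differences that turned sign were as follows, in log2 units. After centring each array, FTL became 0.0146, 0.0011 and 0.0034 at 2, 7 and 24 h and FTH1 0.0030 at 7 h and 0.0033 at 24 h. With first cultures only at 7 h, FTH1 was 0.0018, SLC11A2 -0.73 and SLC39A14 -0.52, and at 24 h FTH1 was 0.0045 and SLC11A2 -0.77. With duplicate cultures only, HMOX1 was 0.043 at 7 h, and at 24 h CD163 was -0.19, HMOX1 0.056, FTH1 0.022, SLC39A14 0.89, STEAP4 0.0019 and LTF -0.14. With the random block at 24 h, FTH1 was 0.0035 and SLC39A14 0.033. Without the 8 arrays, FTL was 0.0052 at 2 h, FTH1 0.040, SLC39A14 -0.15 and STEAP4 0.55 at 7 h, and FTH1 0.043 and STEAP4 0.27 at 24 h. Without single pigs, CD163 ran from -0.065 to 0.0016 at 2 h, -0.095 to 1.07 at 7 h and -0.22 to 1.27 at 24 h. STEAP4 ran from -0.035 to 0.37, -0.98 to 0.88 and -1.49 to 0.71 at these times. FTL ran from -0.011 to 0.0086 at 2 h and -0.00999 to 0.0031 at 24 h, and FTH1 from -0.0089 to 0.0044 at 7 h and -0.023 to 0.016 at 24 h. SLC11A2 ran from -0.68 to 0.64 at 7 h and -0.72 to 0.60 at 24 h, SLC39A14 from -0.26 to 0.55 and -0.40 to 0.30, and LTF from -0.51 to 1.03 and -0.60 to 1.50. The cause was not tested.

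Of the spans, that of FTL moved to 0.092 after centring each array and 2.66 with its dimmer probe set, and that of SLC11A2 to 0.46 with its dimmest. With only genes above the median brightness, fewer members remained, and those wholly above columns 1 to 6 numbered 1, 2 and 3 in the 3 later runs. The other alternatives left these counts within 1.5 times and no member moved below.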
